A study of Homo sapiens with 12 samples.

Results

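*ANKRD1* and 9 other genes of the YAP-TEAD program were followed in the glioblastoma cell line U251. *ANKRD1* was selected on its measured decrease with IFNγ in these cells, and *CCN1*, *CCN2*, *AMOTL2*, *AXL*, *AJUBA*, *LATS2*, *F3*, *THBS1* and *TEAD1* were added by name as genes of the same pathway. The choice was made with earlier results of these data known. Counts of these genes beside shares of all genes are therefore a description and no independent test. The 10 genes are 10 of 45416 in the table, and all 10 passed the filter on low reads that left 17982 genes. U251 is an established human cell line, and its RNA was measured by RNA-seq in 12 libraries, 2 for each of 6 groups. Cells received the siRNA control (siNC) or 1 of 2 siRNAs against *PD-L1*, named siPDL1-1 and siPDL1-2. After 48 h, cells of each siRNA were left unstimulated or given IFNγ at 100 U/ml for 24 h. All groups share the same line, wild-type genotype and transfection procedure, there was no group without transfection, and 1 cell line was used.

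YAP and TAZ are transcriptional co-activators that bind no DNA themselves and act through the TEAD factors. The Hippo kinases, with LATS kinases as the last step, phosphorylate YAP and TAZ and keep them out of the nucleus, whereas cell spreading, stiffness and actin tension release them. *ANKRD1*, *CCN1* and *CCN2* are the usual readouts of this program, which is active in many glioblastoma lines.

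TEAD factors bind DNA at a short core sequence, so the bases upstream of the start site are shown for the 3 members on which the results turn most and for which an entry was at hand. Each line gives 250 bases before the annotated start in GRCh38.p14 from RefSeq, 5′ to 3′ on the strand of the gene, and the capitals mark the TEAD core GGAATG. *ANKRD1* lies on the minus strand, and its window is chr10:90921088-90921337. *CCN2* also lies on the minus strand, with the window chr6:131951373-131951622, and *THBS1* lies on the plus strand, with the window chr15:39580829-39581078.
*ANKRD1*: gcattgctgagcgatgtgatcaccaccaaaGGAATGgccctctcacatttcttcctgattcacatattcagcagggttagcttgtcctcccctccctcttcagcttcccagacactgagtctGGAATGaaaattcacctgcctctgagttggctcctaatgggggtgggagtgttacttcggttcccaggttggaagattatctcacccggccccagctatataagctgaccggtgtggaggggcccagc
*CCN2*: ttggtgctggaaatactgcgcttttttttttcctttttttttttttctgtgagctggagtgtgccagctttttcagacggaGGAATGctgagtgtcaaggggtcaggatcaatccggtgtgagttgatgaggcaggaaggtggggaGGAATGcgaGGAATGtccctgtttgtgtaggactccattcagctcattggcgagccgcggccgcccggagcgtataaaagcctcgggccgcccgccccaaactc
*THBS1*: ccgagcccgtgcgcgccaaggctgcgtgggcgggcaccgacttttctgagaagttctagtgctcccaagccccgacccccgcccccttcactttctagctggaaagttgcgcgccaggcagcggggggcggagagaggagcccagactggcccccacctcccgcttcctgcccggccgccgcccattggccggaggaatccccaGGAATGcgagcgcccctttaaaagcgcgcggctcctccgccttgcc

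The core stood at -220 and -128 in *ANKRD1*, at -169, -104 and -95 in *CCN2* and at -46 in *THBS1*, counted to the first base of the motif from the start site. RefSeq windows of 300 bases, 250 before and 50 after the start, were at hand for 8 of the 10 members, in 11 windows. No entry was at hand for *CCN1* and *TEAD1*. Searched on both strands, as GGAATG or CATTCC, the core was in 7 of the 11 windows, from 7 of the 8 members, and in 14% of all 35116 windows of this length. The members were listed as YAP-TEAD genes beforehand, so this share is a description of the list. The AP-1 motif TGANTCA was in the windows of *ANKRD1* and *F3* and in 7.71% of all windows. The interferon-activated motif TTCNNNGAA was in the window of *THBS1* and in 7.66% of all windows. A match is a stretch of letters and was not tested as a binding site.

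The values are the authors' normalized CPM, reads on a gene scaled to library size, and the log2 of CPM plus 1 was compared with limma. FDR is the Benjamini-Hochberg adjusted p over all 17982 genes, and a gene was called at FDR < 0.01 and fold change > 1.5, the thresholds of the study. Libraries held 17101069 to 55657393 reads on genes, and a member had between 177 reads (*CCN2*) and 13543 reads (*AXL*) in a library. The targeted gene, *CD274*, which encodes PD-L1, stood at 4.76 ± 0.217 CPM in unstimulated siNC cells, against 2.70 ± 0.0436 in siPDL1-1 cells (log2 fold change -0.64, FDR = 1.76e-05) and 3.51 ± 0.0860 in siPDL1-2 cells (-0.35, FDR = 0.00183, under the fold threshold). After IFNγ it stood at 73.6 ± 3.43 CPM in siNC cells, 63.8 ± 4.04 in siPDL1-1 cells (-0.20, FDR = 0.0498) and 36.3 ± 1.76 in siPDL1-2 cells (-1.001, FDR = 4.25e-07), so the knockdown by siPDL1-1 did not pass the test in stimulated cells. *VIM* (3140 to 3970 CPM), *SOX2*, *NES*, *CD44* and *EGFR* were abundant, whereas the astroglial markers *GFAP* (1.92 to 7.25 CPM) and *S100B* (2.40 to 5.92 CPM) were low and *OLIG2* was at 0 to 0.359 CPM. Of 5 leukocyte markers, *PTPRC*, *CD3E* and *AIF1* did not exceed 0.176 CPM. The sum of this list ran from 28.3 to 80.5 CPM, nearly all of it *CD68*, and was highest in siPDL1-1 cells with IFNγ (75.1 to 80.5 CPM). Whether it bears on the values below was not tested. Values after ± are SDs over n = 2 libraries throughout.

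**Figure D1:**
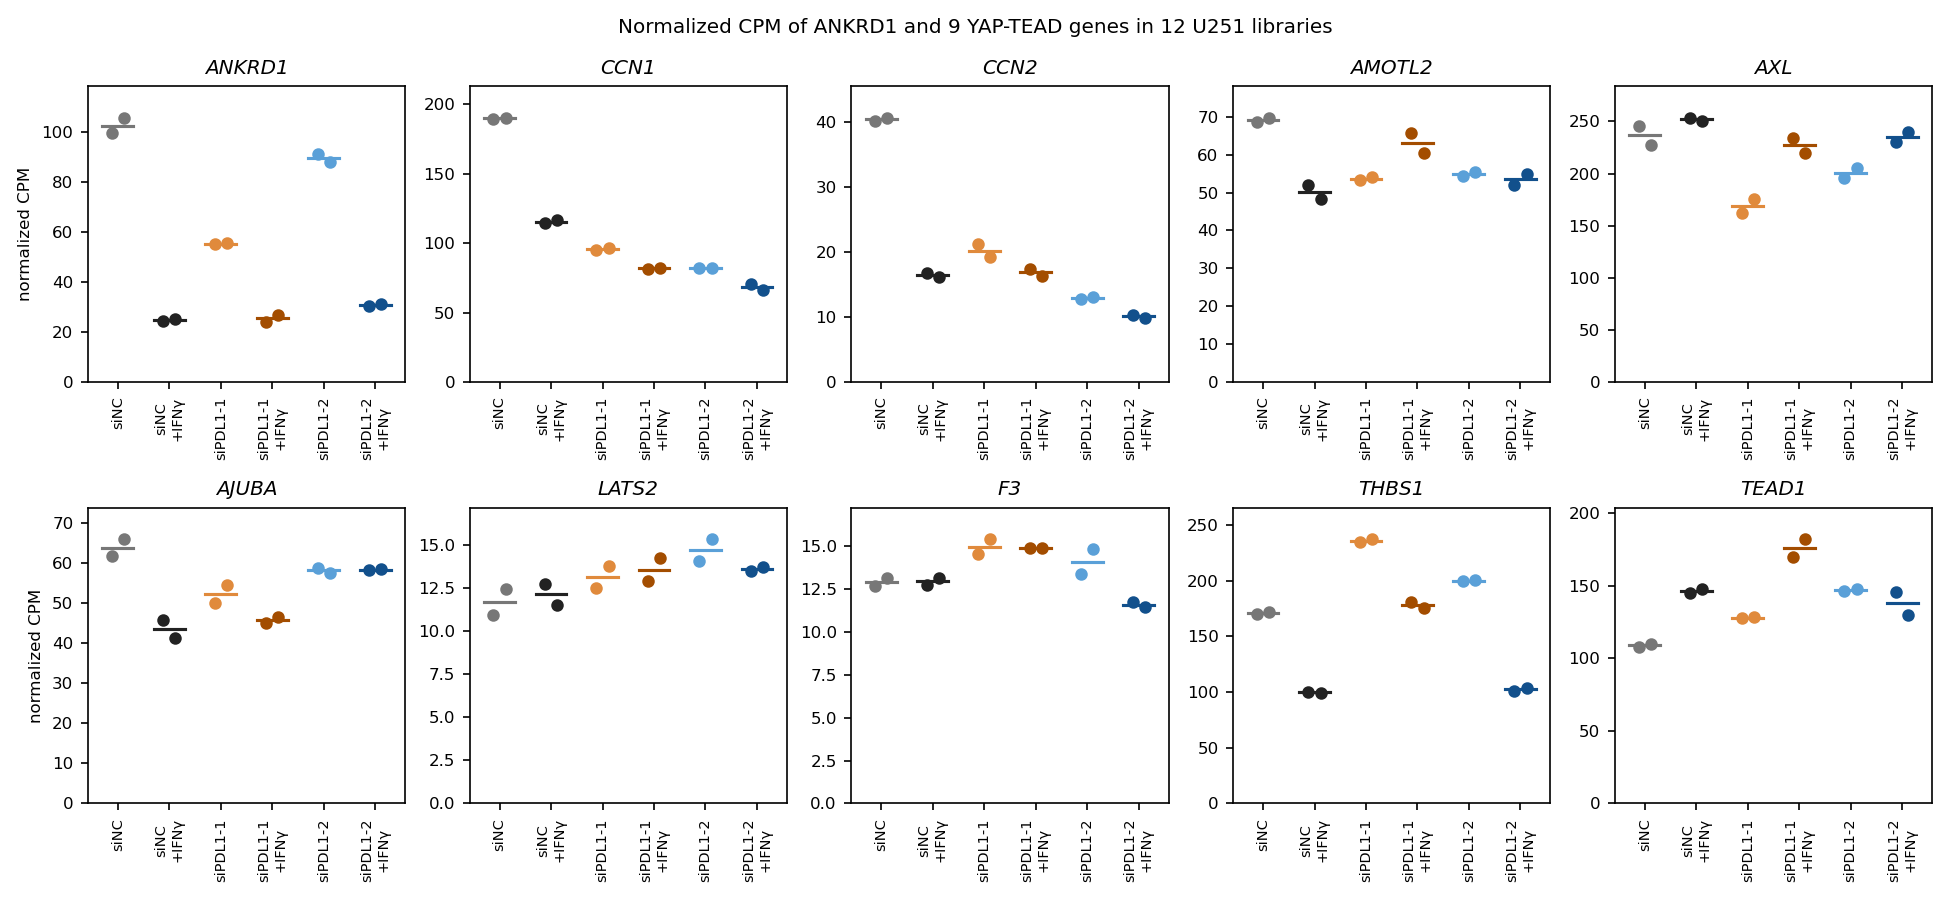
Normalized CPM of the 10 genes in each of the 12 libraries, by group. Points are libraries, bars are means of 2 libraries, and every axis starts at 0; *ANKRD1* is highest in unstimulated siNC cells (102.6 CPM) and lowest in the IFNγ groups (24.9 to 30.8 CPM), whereas *LATS2* and *F3* stay between 10.9 and 15.4 CPM in all libraries.

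*ANKRD1* encodes an ankyrin repeat protein that acts as a nuclear cofactor and, in muscle, in the sarcomere. In unstimulated siNC cells its 2 libraries held 99.4 and 105.7 CPM, and with IFNγ they held 24.4 and 25.3 CPM. In siPDL1-1 cells the values were 55.1 and 55.4 CPM without and 24.1 and 26.8 CPM with IFNγ, and in siPDL1-2 cells they were 91.2 and 87.8 CPM without and 30.6 and 31.1 CPM with IFNγ. Every stimulated library was thus below every unstimulated library. The group means ran from siNC (102.6 ± 4.41 CPM) over siPDL1-2 (89.5 ± 2.40) and siPDL1-1 (55.2 ± 0.212) to the IFNγ groups of siPDL1-2 (30.8 ± 0.367), siPDL1-1 (25.4 ± 1.91) and siNC (24.9 ± 0.675). In that order the last 2 groups overlapped, and all other neighbours were separated by more than their spread.

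The log2 fold change of *ANKRD1* with IFNγ was -2.001 in siNC cells, -1.09 in siPDL1-1 cells and -1.51 in siPDL1-2 cells. Because the gene was chosen for this decrease, these values are a description and carry no test. The averages over both states of stimulation use the same libraries, but at equal spread in all libraries they do not vary with this decrease. They were tested under this assumption. Whether the spread is equal was not tested and cannot be told from 2 libraries per group, so their FDRs hold only under it. Averaged over both states of stimulation, siPDL1-1 and siNC cells differed by -0.43 on the log2 scale (SE 0.0415, FDR = 8.60e-07), under the fold threshold, so the gene was not called. This average joins -0.88 without and 0.03 with IFNγ, so it describes neither state alone. For siPDL1-2 the averaged difference was 0.05 (95% interval -0.04 to 0.14, FDR = 0.348). The shares of all genes called in these averaged comparisons were 4.23% and 2.22%. Between the siRNAs themselves, siPDL1-1 against siPDL1-2 cells had log2 values of -0.69 without and -0.27 with IFNγ. These levels also make up the IFNγ decreases, so both values are a description. siPDL1-1 cells had the lower mean of *ANKRD1* in both states. Their mean of *CD274*, given above, was the lower one without IFNγ and the higher one with IFNγ. Whether *ANKRD1* follows *CD274* was not tested.

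Divided by the length of its merged exons, unstimulated *ANKRD1* reached 57.3 ± 2.46 CPM per kb, the highest level per length of the 10 genes in siNC cells. *CCN1* followed with 51.4 ± 0.137 and *AXL* with 46.2 ± 2.53 CPM per kb. *THBS1* (18.7 ± 0.110) and *CCN2* (17.3 ± 0.141) formed the next level, above *AJUBA* (10.9 ± 0.502), *AMOTL2* (10.7 ± 0.136) and *TEAD1* (10.2 ± 0.141 CPM per kb). *F3* (4.47 ± 0.105) and *LATS2* (2.08 ± 0.190 CPM per kb) were lowest. *AJUBA* did not differ from *AMOTL2* beyond its spread.

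*CCN1* and *CCN2* encode secreted proteins of the extracellular matrix that bind integrins and are induced directly by YAP and TEAD. *CCN1* stood at 189.7 and 190.4 CPM in unstimulated siNC cells and at 114.4 and 116.4 CPM with IFNγ. With siPDL1-1 it was at 94.8 and 96.3 CPM without and 81.8 and 82.2 CPM with IFNγ. With siPDL1-2 it was at 81.8 and 81.9 CPM without and 70.3 and 66.5 CPM with IFNγ. The 2 siNC libraries without IFNγ were therefore above all 10 others, and unstimulated cells of both siRNAs held less than siNC cells with IFNγ. *CCN1* fell with IFNγ in siNC cells (log2 fold change -0.72, SE 0.0427, FDR = 4.19e-09), and it fell with siPDL1-1 (-0.98, FDR = 1.05e-09) and with siPDL1-2 (-1.21, FDR = 1.05e-10) in unstimulated cells. In siPDL1-1 and siPDL1-2 cells the differences with IFNγ were -0.22 and -0.26, under the fold threshold. After IFNγ, siPDL1-2 cells still held less than siNC cells (-0.75, FDR = 2.53e-08), whereas the difference for siPDL1-1 was -0.49 and was not called.

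The *CCN2* libraries held 40.2 and 40.7 CPM in siNC cells and 16.7 and 16.2 CPM in siNC cells with IFNγ. With siPDL1-1 they held 21.2 and 19.2 CPM without and 17.4 and 16.3 CPM with IFNγ. With siPDL1-2 they held 12.8 and 13.03 CPM without and 10.4 and 9.88 CPM with IFNγ. Unstimulated siNC cells again stood above all other libraries, and the siPDL1-2 libraries were below all libraries of the other groups. Unlike *CCN1*, *CCN2* was higher in unstimulated siPDL1-1 cells than in siNC cells with IFNγ. *CCN2* fell with IFNγ in siNC cells (-1.25, SE 0.0713, FDR = 2.50e-09). Its differences with IFNγ in siPDL1-1 and siPDL1-2 cells were -0.25 (FDR = 0.0136) and -0.32 (FDR = 0.00368), and neither was called. In unstimulated cells *CCN2* was lower than in siNC cells with siPDL1-1 (-0.97, FDR = 1.78e-07) and with siPDL1-2 (-1.58, FDR = 1.51e-09). After IFNγ it was lower with siPDL1-2 than with siNC (-0.65, FDR = 1.20e-05), and for siPDL1-1 the difference was 0.03 (95% interval -0.12 to 0.18).

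*THBS1* encodes thrombospondin, a secreted matrix protein that can activate latent TGFβ. It stood at 170.1 and 171.6 CPM in siNC cells and at 100.2 and 99.1 CPM with IFNγ. With siPDL1-1 the values were 234.5 and 237.3 CPM without and 180.5 and 175.1 CPM with IFNγ, and with siPDL1-2 they were 199.3 and 200.9 CPM without and 101.2 and 104.1 CPM with IFNγ. In contrast to *CCN1* and *CCN2*, unstimulated cells of both siRNAs against *PD-L1* stood above the unstimulated control libraries. *THBS1* fell with IFNγ in siNC cells (-0.77, SE 0.0385, FDR = 4.15e-10) and in siPDL1-2 cells (-0.96, FDR = 3.14e-11), and the value of -0.41 in siPDL1-1 cells was under the fold threshold. In stimulated cells it was higher with siPDL1-1 than with siNC (0.83, FDR = 5.21e-10) and did not differ detectably with siPDL1-2 (0.04, 95% interval -0.04 to 0.12). Its gene overlaps *FSIP1* on the other strand, which had a mean of 0.687 CPM, and the counting did not separate strands.

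*AMOTL2*, *LATS2* and *AJUBA* act within the pathway. AMOTL2 is a junction protein that binds YAP and holds it in the cytoplasm, LATS2 is a kinase that phosphorylates it, and AJUBA is a LIM protein that binds the LATS kinases and restrains them. *AMOTL2* was at 68.5 and 69.7 CPM in siNC cells against 52.0 and 48.4 CPM with IFNγ. In siPDL1-1 cells the direction turned, with 53.3 and 54.02 CPM without and 65.7 and 60.5 CPM with IFNγ. In siPDL1-2 cells its libraries overlapped, with 54.5 and 55.4 CPM without and 52.0 and 54.9 CPM with IFNγ. The log2 fold changes with IFNγ were -0.45, 0.23 and -0.04 in siNC, siPDL1-1 and siPDL1-2 cells, each under the fold threshold.

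*AJUBA* was at 61.8 and 66.0 CPM in siNC cells and at 45.8 and 41.3 CPM with IFNγ, a log2 difference of -0.55 (FDR = 4.74e-06) that stayed just under the fold threshold. With siPDL1-1 its group means were 52.3 ± 3.14 CPM without and 45.8 ± 1.06 CPM with IFNγ, and with siPDL1-2 they were 58.3 ± 0.881 and 58.4 ± 0.130 CPM. The stimulated siPDL1-2 libraries were above those of the other stimulated groups, at 0.42 over siNC on the log2 scale (FDR = 0.00014), under the fold threshold. *LATS2* had group means of 11.7 ± 1.06 to 14.7 ± 0.888 CPM, and its log2 fold changes with IFNγ lay between -0.10 and 0.05, with FDRs from 0.420 to 0.760.

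*AXL*, a receptor tyrosine kinase, and *F3*, the tissue factor that starts coagulation, are targets at the cell surface. *AXL* had group means of 236.9 ± 12.97 CPM for siNC, 168.9 ± 8.96 CPM for siPDL1-1 and 200.5 ± 6.68 CPM for siPDL1-2 cells. With IFNγ the means were 252.1 ± 2.11, 227.2 ± 10.2 and 234.9 ± 6.44 CPM in the same order. *AXL* was higher in the stimulated than in the unstimulated libraries of siPDL1-1 and siPDL1-2, by 0.43 (FDR = 1.09e-05) and 0.23 (FDR = 0.00379) on the log2 scale, under the fold threshold. For siNC cells the difference was 0.09 (95% interval -0.02 to 0.20). *F3* ranged from 11.4 to 15.4 CPM over all libraries, and its largest difference with IFNγ was -0.26, in siPDL1-2 cells (FDR = 0.0185).

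*TEAD1* encodes the DNA-binding partner of YAP and TAZ. It was at 107.9 and 110.1 CPM in siNC cells and at 144.9 and 147.6 CPM with IFNγ. With siPDL1-1 it was at 128.0 and 128.1 CPM without and 169.9 and 182.0 CPM with IFNγ, and with siPDL1-2 it was at 146.1 and 147.8 CPM without and 145.7 and 130.1 CPM with IFNγ. The stimulated libraries were thus above the unstimulated ones in siNC and siPDL1-1 cells. In siPDL1-2 cells they were below them, but the closest libraries there held 145.7 and 146.1 CPM. *ANKRD1* and *CCN2* had lower means with IFNγ in every siRNA group, siPDL1-2 included. The log2 fold changes of *TEAD1* were 0.42 (FDR = 1.25e-05), 0.45 (FDR = 6.54e-06) and -0.09 (FDR = 0.196), none of them past the fold threshold.

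With IFNγ, *CCN1*, *CCN2* and *THBS1* fell in siNC cells, which is 3 of the 9 genes other than *ANKRD1*. Of all genes, 8.12% were called in this comparison and 1.45% were called lower, and the median of the 9 genes was -0.45 against 0.00 over all genes. In siPDL1-1 cells 0 of the 9 genes were called by limma, where 6.87% of all genes were called and 1.30% were called lower. edgeR and DESeq2 also called 0 there, 7 of the 9 genes had an unadjusted p under 0.05, and 5 had an FDR under 0.01 with smaller fold changes. More of all genes also had an FDR under 0.01 when the fold threshold was left out. The shares of all genes given here are therefore no background for these looser counts. In siPDL1-2 cells 1 of the 9 genes, *THBS1*, fell, against 5.27% of all genes called and 1.65% called lower. In bulk RNA of a culture, fewer cells expressing a gene and less RNA per cell cannot be told apart.

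**Figure D2:**
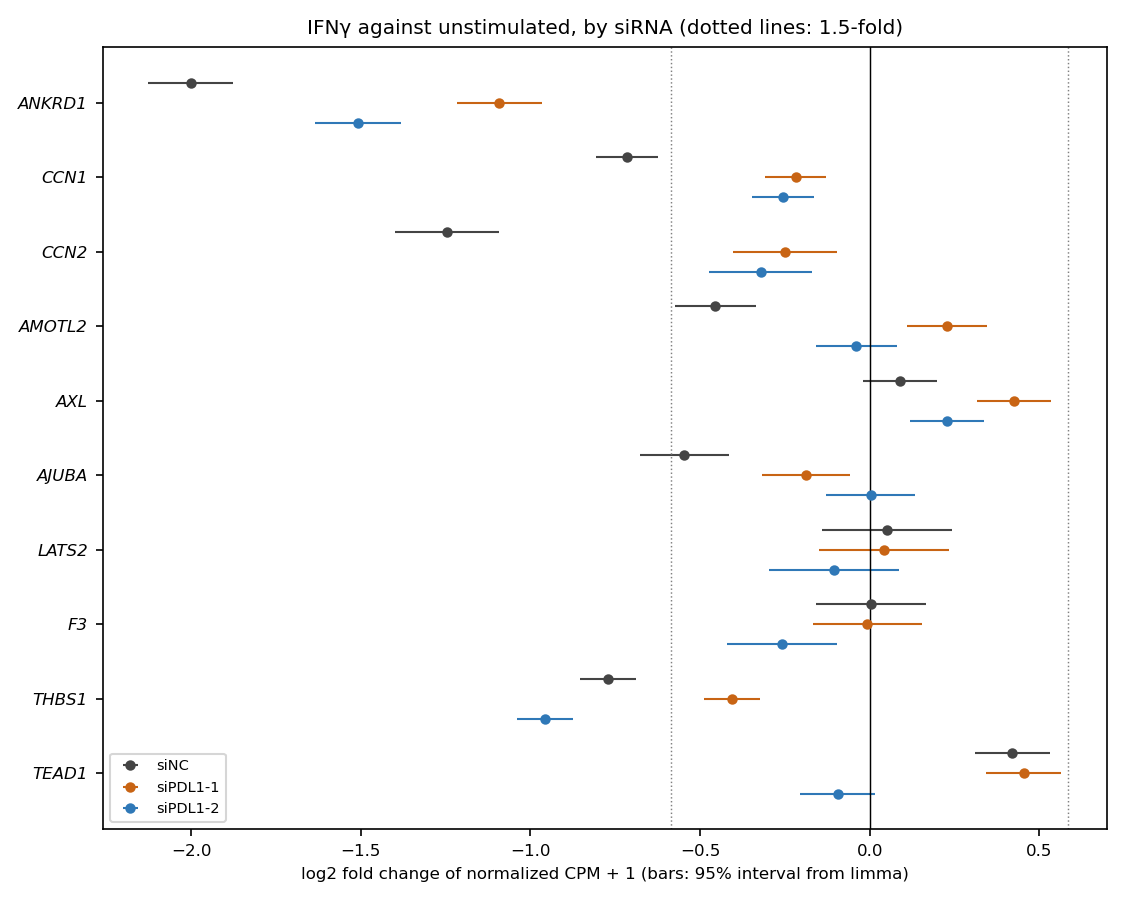
Log2 fold change of CPM plus 1 with IFNγ against unstimulated cells for the 10 genes, by siRNA. Points are limma estimates from 2 against 2 libraries, bars are 95% intervals and dotted lines mark a fold change of 1.5; *ANKRD1* (-2.001, -1.09 and -1.51) was chosen for this decrease, *CCN1* and *CCN2* lie past the line in siNC cells, and *TEAD1* lies to the right of 0 in siNC and siPDL1-1 cells.

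Each siRNA was compared with siNC in each state of stimulation. All 4 comparisons of this kind use siNC libraries, so those within a state of stimulation share their controls. In stimulated siPDL1-1 cells *CD274* itself differed from siNC by only -0.20 (limma, FDR = 0.0498). Whether the differences below follow lower *CD274* was not tested. In unstimulated cells *CCN1* and *CCN2* fell with each siRNA, which is 2 of the 9 genes each time. The share of all genes called was 4.00% for siPDL1-1 and 6.17% for siPDL1-2, and the shares called lower were 1.45% and 1.33%. The values of *ANKRD1*, given as a description, were -0.88 and -0.19. In stimulated cells *THBS1* rose with siPDL1-1, 1 of the 9 genes against 5.47% of all genes, and *CCN1* and *CCN2* fell with siPDL1-2, 2 of the 9 genes against 3.13% of all genes called and 1.20% called lower. There *ANKRD1* had values of 0.03 and 0.30, again as a description.

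**Figure D3:**
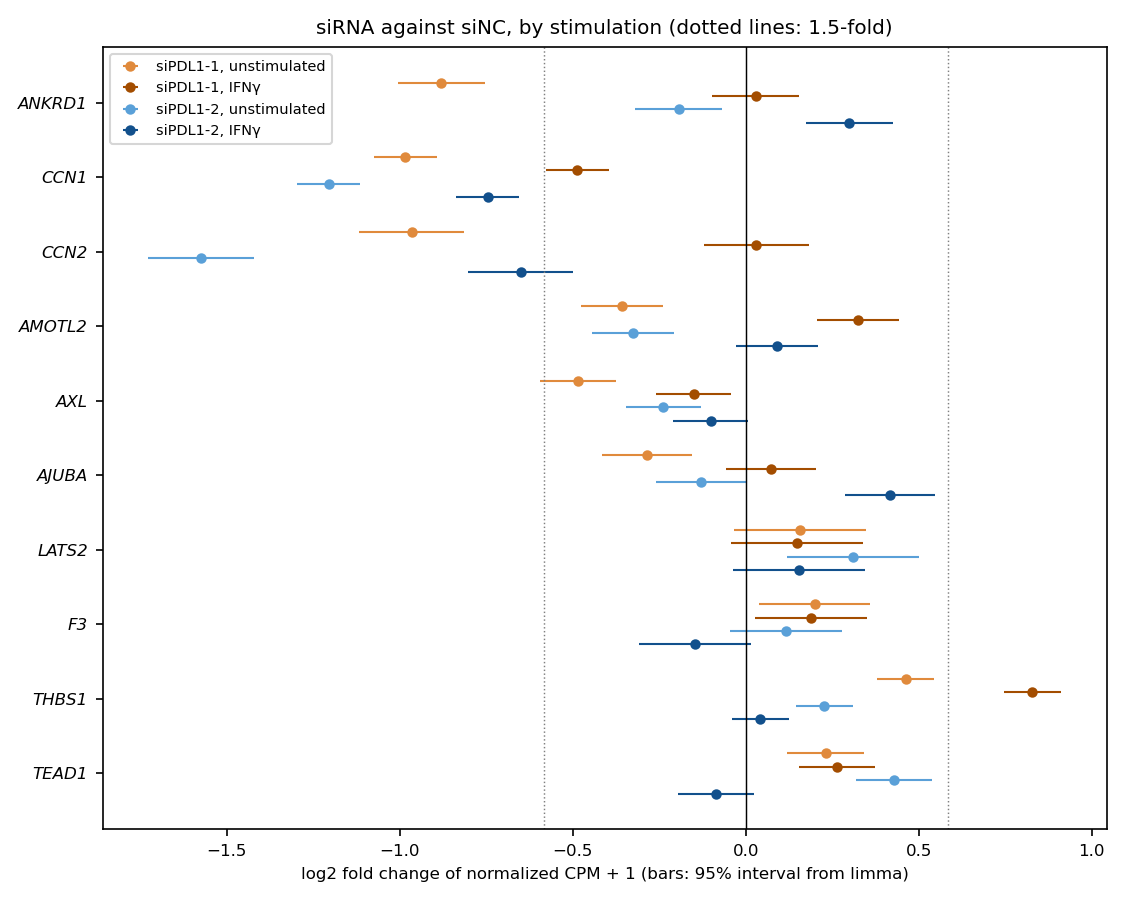
Log2 fold change of CPM plus 1 for each siRNA against siNC in unstimulated and stimulated cells, for the 10 genes. Points are limma estimates from 2 against 2 libraries, bars are 95% intervals and dotted lines mark a fold change of 1.5; unstimulated *CCN1* (-0.98 and -1.21) and *CCN2* (-0.97 and -1.58) lie past the line with both siRNAs, and *THBS1* lies past it on the other side with siPDL1-1 and IFNγ (0.83).

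Set against each other, the siRNAs differed in *CCN2* in both states and in *THBS1* after IFNγ. In unstimulated cells *CCN2* was higher with siPDL1-1 than with siPDL1-2 (0.61, SE 0.0713, FDR = 1.81e-05), 1 of the 9 genes where 4.35% of all genes were called. Without replicate 1 of the unstimulated siPDL1-1 libraries this value was 0.54 and was not called. After IFNγ *CCN2* (0.68, FDR = 7.78e-06) and *THBS1* (0.79, FDR = 1.27e-09) were higher with siPDL1-1, 2 of the 9 genes where 2.23% of all genes were called.

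The change of each siRNA's effect with IFNγ was tested as an interaction. It equals the difference between the IFNγ effect in cells of that siRNA and in siNC cells. For siPDL1-1, *CCN2* (0.996, SE 0.101, FDR = 1.65e-05) and *AMOTL2* (0.68, SE 0.0784, FDR = 6.18e-05) were called, 2 of the 9 genes where 0.968% of all genes were called. For siPDL1-2, *CCN2* was called (0.92, SE 0.101, FDR = 4.26e-05), 1 of the 9 genes where 7.62% of all genes were called. *AJUBA* (0.55, FDR = 0.000357) and *TEAD1* (-0.51, FDR = 0.000184) were under the fold threshold there. *CCN1* had values of 0.50 and 0.46 in the same order, and *THBS1* had values of 0.37 and -0.19, none of them called. For *ANKRD1* the values were 0.91 and 0.49, as a description. Both interactions use the same siNC libraries.

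The genes whose levels were most like *ANKRD1* over the 12 libraries were looked for among the 11587 genes whose mean reached 5 CPM. They were *SH3RF2* (r = 0.989), *GFPT2* (0.989), *TRIM45* (0.988), *VCL* (0.983) and *ARHGEF2* (0.981), where r is the Pearson correlation of log2 CPM plus 1. *GFPT2* encodes an enzyme of hexosamine synthesis, *VCL* encodes vinculin of focal adhesions, and *ARHGEF2* encodes an activator of RhoA bound to microtubules. *TRIM45* went from 53.9 ± 0.664 to 22.5 ± 0.412 CPM with IFNγ in siNC cells, and *VCL* from 389.7 ± 2.90 to 293.4 ± 1.02 CPM. Among the members, *AJUBA* was most like *ANKRD1* (r = 0.78), followed by *THBS1* (0.60), *CCN2* (0.52) and *CCN1* (0.48), and *TEAD1* ran the other way (-0.66). By this r, *AJUBA* had rank 415 of the 11587 genes, *THBS1* rank 1208, *CCN2* rank 1688 and *CCN1* rank 1909, so many other genes were closer. In unstimulated siPDL1-2 cells, where *ANKRD1* was at 89.5 CPM, *CCN1* was at 81.8 ± 0.0725 CPM and *CCN2* at 12.9 ± 0.184 CPM. These correlations describe 12 libraries in 6 groups and share the IFNγ decrease on which *ANKRD1* was chosen.

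**Figure D4:**
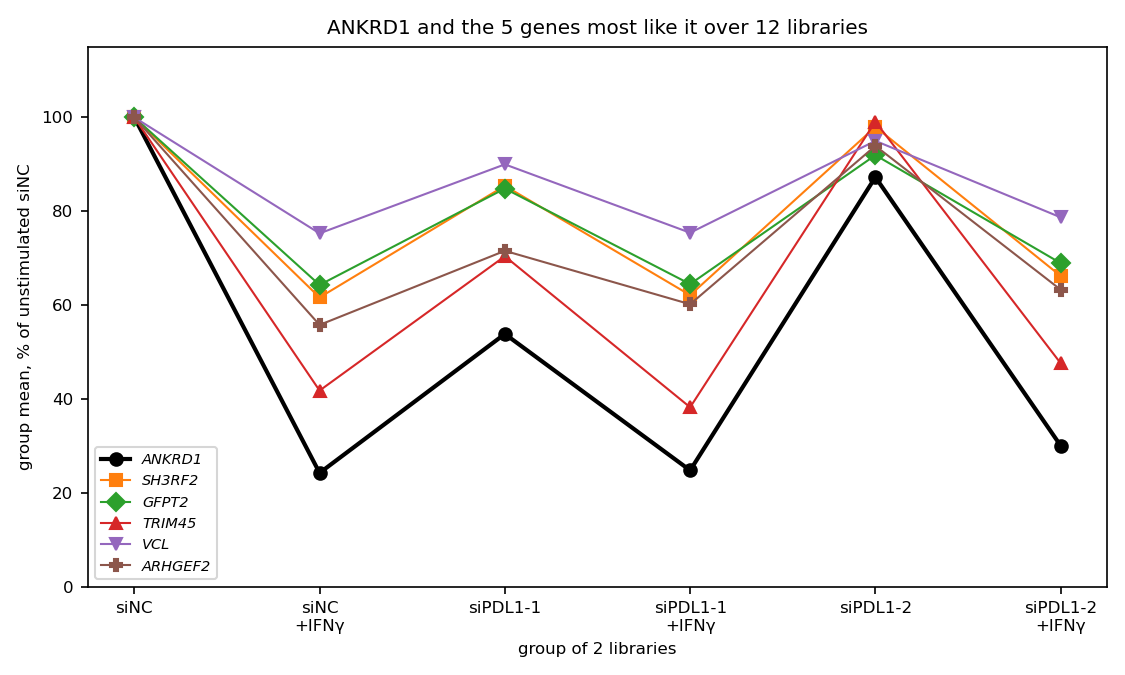
Mean level of *ANKRD1* and of the 5 genes most like it in the 6 groups, in percent of unstimulated siNC cells. Each point is the mean of 2 libraries and lines only join the points of a gene; all 6 genes are lower in each IFNγ group than in its unstimulated group, and *ANKRD1* (102.6 CPM in unstimulated siNC cells) has the deepest curve.

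The wider pathway was read from lists of Hippo regulators, YAP, TAZ, TEAD and VGLL factors, further YAP-TEAD targets and genes of the SRF-MRTF and actin program. They hold 65 genes besides the 10 members, and 62 were tested. With IFNγ, 6 of the 62 were called in siNC cells, 7 in siPDL1-1 cells and 5 in siPDL1-2 cells, or 9.68%, 11.3% and 8.06%. With siPDL1-1 and siPDL1-2, 4 each were called in unstimulated cells (6.45%) and 2 each in stimulated cells (3.23%). Of all genes, 8.12%, 6.87% and 5.27% were called with IFNγ in siNC, siPDL1-1 and siPDL1-2 cells. For siPDL1-1 and siPDL1-2 the shares of all genes were 4.00% and 6.17% in unstimulated cells and 5.47% and 3.13% in stimulated cells. The medians of the 62 genes were between -0.11 and 0.01 on the log2 scale in these 7 comparisons.

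Among the Hippo regulators, *MOB1B*, an activator of LATS kinases, went from 38.4 ± 0.967 to 82.2 ± 3.52 CPM with IFNγ in siNC cells (log2 fold change 1.08, FDR = 8.69e-07) and rose in siPDL1-1 cells as well (0.75, FDR = 2.90e-05). Its relative *MOB1A* rose in the same groups (0.64 and 0.64), but it was under the fold threshold without the authors' scaling (0.55 and 0.57) and, in siPDL1-1 cells, without replicate 2 of the stimulated libraries (0.53). In unstimulated cells *NF2*, an upstream activator of the kinases, fell with siPDL1-2 (-0.86, FDR = 7.44e-09) while *MOB1B* rose (0.90), and *AMOTL1*, a relative of *AMOTL2*, fell with siPDL1-1 (-0.75, FDR = 2.57e-06). *MOB1B* was lower with siPDL1-2 than with siNC in stimulated cells (-0.59), which was lost without replicate 2 of the stimulated siNC (-0.54) or siPDL1-2 libraries (-0.47), with DESeq2's size factors (-0.58) and without the authors' scaling (-0.54).

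Of the factors, *YAP1* rose with siPDL1-2 in unstimulated cells, from 51.7 ± 0.346 to 86.7 ± 2.54 CPM (0.74, FDR = 3.31e-07), in the cells in which *CCN1* and *CCN2* were lowest without stimulation. *TEAD4* went from 14.6 ± 0.965 to 22.8 ± 1.43 CPM with IFNγ in siPDL1-2 cells (0.61, FDR = 3.52e-05). This call was lost without replicate 2 of the unstimulated (0.55) or stimulated siPDL1-2 libraries (0.55) and without the authors' scaling (0.55).

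Of 17 further targets, 2 were called with IFNγ in siNC cells, 4 in siPDL1-1 cells and 3 in siPDL1-2 cells. The shares of all genes called in these comparisons were 8.12%, 6.87% and 5.27%. *NT5E*, which encodes an enzyme that makes extracellular adenosine, rose with IFNγ in siNC (1.08, FDR = 7.40e-09), siPDL1-1 (1.17, FDR = 2.30e-09) and siPDL1-2 cells (0.65, FDR = 3.16e-06). *RBMS3* rose in siNC (0.80) and siPDL1-1 cells (0.87), *CDC42EP3* rose in siPDL1-1 cells (0.68) and *IGFBP3* fell there (-0.95, FDR = 6.94e-12). In siPDL1-2 cells *TGFB2* (-0.80) and *GADD45A* (-0.59) fell with IFNγ, and *GADD45A* was under the threshold without replicate 2 of the unstimulated (-0.55) or replicate 1 of the stimulated siPDL1-2 libraries (-0.54) and with DESeq2's size factors (-0.58). In unstimulated cells the kinase gene *NUAK2* fell with siPDL1-1 (-0.77, FDR = 1.55e-05) and with siPDL1-2 (-0.88, FDR = 3.31e-06), as *CCN1* and *CCN2* did.

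Of the SRF-MRTF genes, *ACTA2*, which encodes smooth muscle actin, rose with IFNγ in every siRNA group (1.54, 1.75 and 1.56 in siNC, siPDL1-1 and siPDL1-2 cells), against the direction of *ANKRD1*. Overlaps with other genes were looked up for the members only, and the counting did not separate strands. Whether reads of an overlapping gene add to the *ACTA2* values was not tested. The median of the 21 tested genes in siNC cells was -0.30 against 0.00 over all genes. *MRTFA*, the co-activator of SRF, fell in siNC cells (-0.63), which was lost without replicate 2 of the stimulated libraries (-0.55). *SRF* itself fell with siPDL1-1 in unstimulated cells (-0.64, FDR = 1.03e-06), whereas *TAGLN*, a smooth muscle gene, rose with siPDL1-1 in both states (0.98 and 0.90). In stimulated cells *CNN1* rose with siPDL1-1 (0.63, FDR = 0.00200) at levels of 0.624 to 1.51 CPM, and the call was lost without replicate 2 of siNC (0.52) or replicate 1 of siPDL1-1 (0.58) and when only the groups compared were fitted (FDR = 0.0123). *FHL1* fell with siPDL1-2 in stimulated cells (-0.78, FDR = 3.26e-08).

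**Figure D5:**
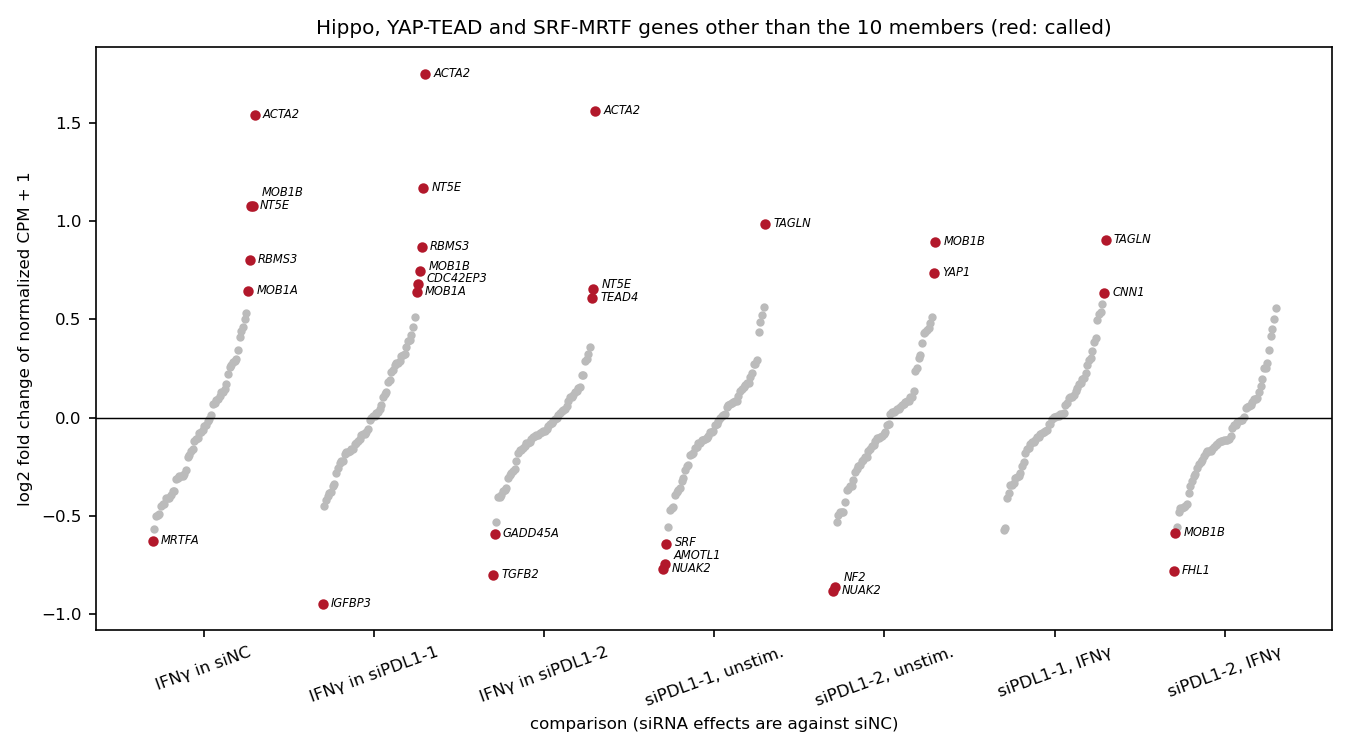
Log2 fold change of CPM plus 1 for the 62 tested pathway genes other than the 10 members, in 7 comparisons, ordered by value within each. Grey points were not called and red points, with names, were called; *ACTA2* is the highest point in each IFNγ comparison (1.54 to 1.75), and *NUAK2* (-0.77 and -0.88) is the lowest point for both siRNAs without stimulation.

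Between the siRNAs, unstimulated siPDL1-1 cells held less *MOB1A* (-0.76), *MOB1B* (-0.69), *RBMS3* (-0.67) and *EGR1* (-0.81) than siPDL1-2 cells, and stimulated siPDL1-1 cells held more *FHL1* (0.68). The share of the 62 genes called was 6.45% and 1.61%, against 4.35% and 2.23% of all genes. In the interaction with siPDL1-2, *MOB1B* (-1.48), *RBMS3* (-0.76), *MOB1A* (-0.73) and *YAP1* (-0.63) were lower and *FJX1* (0.73) and *NUAK2* (0.65) were higher. These are 6 of the 62 genes (9.68%), where 7.62% of all genes were called. The call of *NUAK2* was lost without replicate 1 of the unstimulated siNC (0.58) or siPDL1-2 libraries (0.62). In the interaction with siPDL1-1, *IGFBP3* was lower (-0.63, FDR = 8.65e-07), and *NUAK2* (0.67) and *EGR1* (0.65) were higher. These are 3 of the 62 genes (4.84%), where 0.968% of all genes were called. The last 2 calls, of *NUAK2* and *EGR1*, had FDRs of 0.00702 and 0.00687 and were lost in 14 and 11 of the 22 alternatives.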

How the data were processed

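RNA-seq of polyadenylated RNA was measured in 12 U251 libraries, grouped by the sample labels. Per the methods, the authors used CLC Genomics Workbench 22.0.2 for trimming, mapping to GRCh38 (Ensembl), counting on both strands and normalization. The table they deposited holds a signal for each gene and library, namely CPM after that normalization. For each library 100% of entries came out as whole reads (tolerance 0.01), so reads were recovered, and the authors' scaling factors (0.959 to 1.036) equalled edgeR's TMM factors. A read was worth 0.0187 to 0.0586 CPM. The number of reads sets the counting error only.

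Genes were filtered with filterByExpr (minimum count 10, minimum total 15). log2(CPM + 1) was fitted with limma (trend, robust) over all 12 libraries as 6 groups, with Benjamini-Hochberg adjustment over all genes tested, and fold changes are on this scale. The comparison of *ANKRD1* between the siRNAs was planned as a test and is given as a description. Replicate numbers showed no common pairing of the libraries (correlation of deviations between groups -0.132 to 0.193, above 0.1 in 2 of 15 pairs of groups). This check cannot show that the libraries were unpaired. Replicates were no copies (mean chi-square 1.79 to 6.71). The study gives independent experiments, but how labels map to them is not given in the sources used here, so p-values measure the spread between these libraries. The paper and the labels name different extraction kits and sequencers.

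The members and lists were chosen with earlier results of these data known. Named genes are the members, up to 4 called genes per pathway list and comparison with the largest changes, the 5 genes most like *ANKRD1* and *CD274*. The lists were written from general knowledge, and 1 pathway gene and 1 marker are not reported here. Exon lengths came from GENCODE release 44, and promoters came from RefSeq. Alternatives were a pseudocount of 0.1, no filter, DESeq2 size factors, plain CPM, a replicate block, edgeR's quasi-likelihood test, DESeq2's Wald test, only the groups compared, other thresholds and leaving out each library. The fit was tested on simulated data. Fits used limma 3.58.1, DESeq2 1.42.0 and edgeR 4.0.16 in R 4.3.3, and figures used matplotlib 3.10.9 with pandas 2.3.3 in Python 3.11.15.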

Additional observations from a re-analysis of the deposited data

Results flagged for a closer look

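By the interaction test, siPDL1-1 or siPDL1-2 cells differed from siNC cells in the effect of IFNγ in 3 cases. These are among the 9 genes other than *ANKRD1*. *CCN2* differed for siPDL1-1 by 0.996 on the log2 scale (limma, FDR = 1.65e-05), with means of 40.4 and 16.5 CPM without and with IFNγ in siNC cells and 20.2 and 16.8 CPM in siPDL1-1 cells. *CCN2* also differed for siPDL1-2, by 0.925 (FDR = 4.26e-05), with means of 12.9 and 10.1 CPM. *AMOTL2* differed for siPDL1-1 by 0.683 (FDR = 6.18e-05), with means of 69.1 and 50.2 CPM in siNC cells and 53.7 and 63.1 CPM in siPDL1-1 cells. The siNC libraries are common to these values, and in each case the unstimulated siPDL1-1 or siPDL1-2 cells stood below the unstimulated siNC cells.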

How the results depend on the processing

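Each result was recomputed under 22 alternatives. Of 17 called values of the 9 genes other than *ANKRD1*, 16 kept their direction and call in all of them and 0 reversed. The exception was *CCN2* between the siRNAs in unstimulated cells, and over left-out libraries the number called there was 0 to 1. With the replicate block the numbers called in the 11 comparisons did not change, and the averaged *ANKRD1* values stayed at -0.43 and 0.05. The block changed no call of a member. Of the other pathway genes it ended the interaction calls of *NUAK2* (0.67) and *EGR1* (0.65) with siPDL1-1. Without a fold change threshold, 6, 5 and 4 of the 9 genes were called with IFNγ in siNC, siPDL1-1 and siPDL1-2 cells, 7 and 6 for siPDL1-1 and siPDL1-2 against siNC in unstimulated cells, 4 for siPDL1-1 after IFNγ, 5 and 7 between the siRNAs without and with IFNγ, and 4 and 5 in the interactions with siPDL1-1 and siPDL1-2. More of all genes were also called in each of these comparisons without this threshold. The shares of all genes given above hold with the threshold and are no background for these counts. Without the threshold *ANKRD1* was called for the averaged siPDL1-1 effect (-0.43), and its value between the siRNAs after IFNγ (-0.27) stays a description. In the interaction with siPDL1-2, 2 genes were called with DESeq2's size factors, edgeR and DESeq2, and 1 to 2 over left-out libraries, with 2 without replicate 1 of unstimulated siNC, stimulated siNC or stimulated siPDL1-2. Of 44 called values of other pathway genes, 34 kept their call everywhere and 0 reversed. Why calls near the thresholds moved was not tested. Groups of 2 libraries limit every value, and a library left out leaves 1 that is assumed to vary like the other groups.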
